A study of Bos grunniens with 6 samples.

Results

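CCNE2 and USP44 are cell cycle genes measured here in the testis of the yak (Bos grunniens) at an age before and an age after sexual maturity. They were taken by gene identity, as the yak Ensembl genes ENSBGRG00000006166 (CCNE2) and ENSBGRG00000000638 (USP44), and make up 2 of the 20953 genes in the expression table and 3 of the 16318 m6A peaks in the peak table. Both also stand in the study's own list of testis genes that changed in m6A and in mRNA in these samples, so their differences here are not independent evidence. The study took testicular parenchyma from 6 healthy male yaks with no treatment, 3 that were 6 months old and before sexual maturity (Y6M) and 3 that were 30 months old (Y30M). Polyadenylated RNA was fragmented, a portion was precipitated with an antibody against m6A (N6-methyladenosine, a methyl mark on adenosines inside mRNA), and another portion was sequenced without precipitation as the input. The input libraries gave the expression values, 1 library per yak. The peaks were called on the yaks of a group together, so they carry no value per yak.

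CCNE2 encodes cyclin E2. E-type cyclins bind and activate the kinase CDK2 at the passage from G1 into S phase, and they are needed in male meiosis. USP44 encodes a deubiquitinase, an enzyme that removes ubiquitin from proteins. It is known for acting on CDC20, the activator of the anaphase-promoting complex, in the spindle checkpoint, and for removing ubiquitin from histone H2B. A testis before sexual maturity holds mainly spermatogonia and somatic cells in its tubules, and meiotic and later germ cells appear as spermatogenesis begins. In bulk tissue, fewer cells of a type and less RNA per cell cannot be told apart.

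The sequences held for these genes are the primers with which the study measured CCNE2 by qRT-PCR. They are shown because they define the stretch of the transcript that assay read, and are written 5′ to 3′ in lower case with no part marked.
CCNE2-F: ctgagttggaaccacagatgag
CCNE2-R: tcttcactgcaagcaccatc
The forward primer has 22 bases, 11 of them G or C, and the reverse primer has 20 bases, 10 of them G or C.

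To learn how the genes differed with age, their expression was compared between the groups in FPKM, a level of sequenced fragments scaled by transcript length and by the size of the library. CCNE2 was 0.445, 0.987 and 1.95 FPKM in Y6M yaks 1, 2 and 3, and 5.93, 4.52 and 10.2 FPKM in Y30M yaks 1, 2 and 3. All 3 Y30M yaks were above all 3 Y6M yaks, and the lowest Y30M value was 2.31 times the highest Y6M value. The Y6M yaks averaged 1.13 ± 0.764 FPKM (SD, n = 3) and the Y30M yaks 6.87 ± 2.95 FPKM (SD, n = 3), so the ratio of means was 6.09. Without Y6M yak 3 the Y6M mean was 0.716 FPKM and the ratio 9.60. The yaks within a group also differed. The highest value was 4.39 times the lowest in Y6M and 2.25 times the lowest in Y30M.

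USP44, the deubiquitinase, was close to 0 in the juvenile testis. Its level was 0.0294, 0.147 and 0.0238 FPKM in Y6M yaks 1, 2 and 3, and 3.74, 3.17 and 7.51 FPKM in Y30M yaks 1, 2 and 3. The lowest Y30M value was 21.6 times the highest Y6M value, so the groups lay further apart than for CCNE2. The Y6M yaks averaged 0.0667 ± 0.0695 FPKM (SD, n = 3) and the Y30M yaks 4.81 ± 2.36 FPKM (SD, n = 3), so the ratio of means was 72.1. The Y6M mean rested largely on yak 2, whose value was 6.18 times that of yak 3. Without Y6M yak 2 the Y6M mean was 0.0266 FPKM and the ratio 181.

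**Figure D1:**
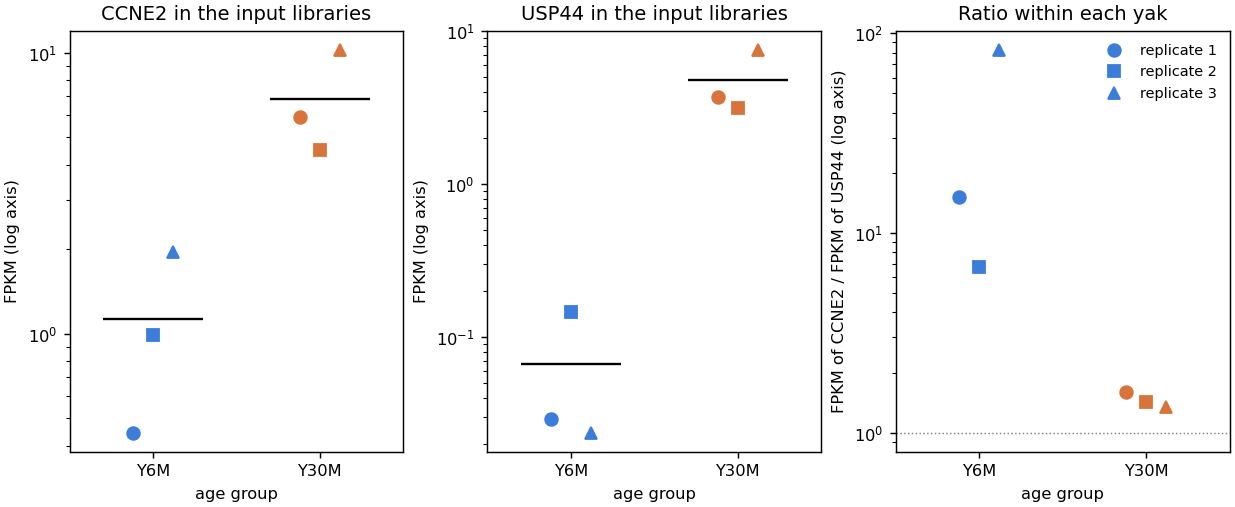
FPKM of CCNE2 (left) and USP44 (middle) in each input library, and the ratio of the 2 levels (right), by age group on log axes. Each point is a yak, its shape is the replicate number and the black line is the group mean (n = 3). For both genes every Y30M point lies above every Y6M point, and the ratio lies between 1.35 and 1.59 in Y30M against 6.72 to 82.1 in Y6M.

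Both genes rose with age. On the log2(FPKM + 1) scale, which understates the change of low genes, CCNE2 was higher in Y30M by 1.89 (SE 0.37, limma, Benjamini-Hochberg adjusted p = 0.0107 over 19477 genes). USP44 was higher by 2.37 on the same scale (SE 0.29, limma adjusted p = 0.00187). A gene was called changed at an unadjusted limma p of at most 0.05 and a fold of at least 1.5, the thresholds of the study, and both genes were called. Under that rule 46.3% of all genes tested were called, with 27.3% called higher in Y30M and 19.0% called lower, so a rise by itself was common in this comparison. Groups that did not overlap, with every Y30M library above every Y6M library, were found for 32.2% of genes. A larger log2 difference than that of CCNE2 was found for 12.5% of genes tested, and a larger one than that of USP44 for 9.49%. With a pseudocount of 0.01 in place of 1 the log2 difference was 2.76 for CCNE2 and 6.24 for USP44, and the shares of genes with a larger difference were 15.5% and 4.78%. An exact two-sided permutation test of each gene alone gave p = 0.1, the smallest value that 3 yaks against 3 allow.

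By the smallest numbers that fit, the fragments behind these levels were fewer in the juvenile testis. FPKM values of low genes step by the worth of 1 fragment, and the smallest whole fragment numbers that fit the steps of CCNE2 were 29, 73 and 105 in Y6M yaks 1, 2 and 3 and 424, 345 and 762 in Y30M yaks 1, 2 and 3. For USP44 they were 3, 17 and 2 in Y6M yaks 1, 2 and 3 and 418, 379 and 880 in Y30M yaks 1, 2 and 3. The true numbers may be a common multiple of these. With 3 fragments the exact Poisson 95% interval of USP44 in Y6M yak 1 ran from 0.619 to 8.77 fragments, and with 2 fragments in Y6M yak 3 it ran from 0.242 to 7.22. With 17 fragments in Y6M yak 2 it ran from 9.90 to 27.2. The intervals are not scaled to depth, which was 0.911, 1.03 and 0.752 of that of Y30M yak 1 in Y6M yaks 1, 2 and 3. Unscaled, the USP44 interval of Y6M yak 2 lies above those of Y6M yaks 1 and 3. Whether yak 2 differed from them at equal depth was not tested. For CCNE2 the 29 fragments of Y6M yak 1 had an interval of 19.4 to 41.6 and the 105 of Y6M yak 3 one of 85.9 to 127, so the yaks of 1 age differed by more than counting error. These intervals cover counting error only.

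The rank of each gene within a library gave the same order of groups. CCNE2 lay above 21.6%, 28.5% and 32.9% of the detected genes of Y6M yaks 1, 2 and 3, and above 46.9%, 47.1% and 57.1% of those of Y30M yaks 1, 2 and 3. USP44 lay above 3.23%, 12.2% and 1.51% in Y6M and above 39.7%, 41.4% and 51.3% in Y30M. USP44 was among the lowest detected genes of the juvenile testis, and both genes stood near the middle of the detected genes after maturity.

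FPKM is scaled by length, so the levels of the genes can be set side by side. CCNE2 was 15.1, 6.72 and 82.1 times USP44 in Y6M yaks 1, 2 and 3, and 1.59, 1.42 and 1.35 times USP44 in Y30M yaks 1, 2 and 3. CCNE2 was the higher gene in all 6 yaks, and its ratio to USP44 was lower in every Y30M yak than in every Y6M yak (exact two-sided permutation p = 0.1, the smallest possible). The Y6M ratios rest on 2 to 17 fragments of USP44 by the smallest whole numbers that fit.

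The input libraries separated by age on the first principal component, which held 87.3% of the variance. On the second, which held 7.38%, the yak numbered 3 in each group stood apart, at 43.0 in Y6M and 52.5 in Y30M against -36.2 to -13.0 for the other 4. Y30M yak 3 had the highest level of both genes in its group, and Y6M yak 3 had the highest CCNE2 and the lowest USP44. Without yak 3 of both groups CCNE2 was higher in Y30M by 1.87 (log2 scale, SE 0.24, limma adjusted p = 0.0106) and USP44 by 2.03 (SE 0.15, limma adjusted p = 0.00395), so both calls held. The FPKM of a library summed to 683862 to 702778 in Y6M and to 587932 to 624025 in Y30M, and the relative depth of the libraries ran from 0.752 to 1.07 of that of Y30M yak 1.

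The genes around CCNE2 and USP44 were read from lists of the cyclin E and CDK2 axis, other cyclins and CDKs, RB and E2F, replication licensing, the anaphase-promoting complex, the spindle checkpoint, the centriole and the ubiquitin-specific peptidases. Gene symbols could be paired with the identifiers of the expression table only through lists of the study's peaks and changed genes, and 40 of 215 listed symbols other than CCNE2 and USP44 were paired, 32 of them through lists of changed features alone. The counts therefore lean towards changed genes and are read against the 59.3% called among all 2098 genes with a symbol, 32.7% higher and 26.5% lower in Y30M, and against 51.2% called among the 416 genes whose symbol also stands in the peak lists of a group. Of the 40 genes 19 were called higher in Y30M (47.5%), 6 lower (15.0%) and 15 were not called. Their median log2 difference was 0.91, against 0.06 for the genes with a symbol and 0.04 for all genes tested. Scaled to TPM, 22 were called higher and 3 lower. With 1 library left out at a time the number called higher, 19 with all, ran from 13 to 21. It was 15 without Y30M yak 1 or 3, 14 without Y6M yak 1 and 13 without Y6M yak 2. The number called lower fell from 6 to 3 without Y30M yak 1 or Y6M yak 1. It fell to 2 without Y30M yak 2 and to 1 without Y6M yak 3. On the log2(FPKM + 1) scale 6 of the 40 genes had a larger rise than CCNE2, and 2, CDC25C and PLK4, had a larger rise than USP44. These ranks depend on the pseudocount, since with 0.1 or 0.01 in place of 1 there were 4 genes above CCNE2 and 0 above USP44.

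In the cyclin E axis, 5 of 16 listed genes were paired, CCNE2 included. Called higher were 2, CCNE2 itself and CDK2, and 1 was called lower, against 32.7% higher and 26.5% lower among genes with a symbol. Of the 5, 4 got their symbol through lists of changed features alone. CDK2, the kinase that cyclin E2 activates, rose from 12.4 ± 5.26 to 46.0 ± 9.08 FPKM (SD, n = 3). Its log2 difference was 1.88 (SE 0.34, limma adjusted p = 0.00807), close to that of CCNE2 with a pseudocount of 1. With a pseudocount of 0.01 the log2 difference of CDK2 was 1.97, against 2.76 for CCNE2. The ratio of means was 3.72 for CDK2 and 6.09 for CCNE2, so the likeness depends on the pseudocount. CDKN1B, which encodes the CDK inhibitor p27, fell from 31.7 ± 12.0 to 13.4 ± 6.52 FPKM (SD, n = 3), by 1.24 on the log2 scale (SE 0.45, limma adjusted p = 0.0784), and this call was lost without Y30M yak 1 or 2 or without Y6M yak 2 or 3. SKP2, the ubiquitin ligase subunit that targets p27, had a mean of 5.68 FPKM in Y6M and 4.52 in Y30M, and NPAT, a substrate of cyclin E and CDK2 at histone genes, had 4.44 and 5.17. Neither passed the test.

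Among other cyclins and CDKs, 5 of 42 listed genes were paired, 4 of them through lists of changed features alone. Of the 5, 1 was called higher and 2 lower, against 32.7% and 26.5% among genes with a symbol. CDC25C, the phosphatase that activates CDK1 at entry into division, rose from 0.361 ± 0.249 to 7.53 ± 1.22 FPKM (SD, n = 3), a log2 difference of 2.65 (SE 0.18, limma adjusted p = 0.000285). CCNT2, a cyclin of transcription elongation, fell by 0.87 and CDK14, a partner of cyclin Y, by 0.78 on the log2 scale, with limma adjusted p of 0.0893 and 0.0661, and each lost its call when any of 4 libraries was left out. CCNG1 had 79.4 FPKM in Y6M and 39.8 in Y30M and CDK13 had 14.2 and 12.4, and neither was called in the main fit. CCNG1 was called in 5 of 16 alternative settings, among them without Y30M yak 3, with a log2 difference of -1.58.

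For RB and E2F, 4 of 17 listed genes were paired and 2 were called higher, against 32.7% among all genes with a symbol. E2F4 rose from 15.9 ± 0.98 to 36.3 ± 10.2 FPKM (SD, n = 3), with a limma adjusted p of 0.0106, and E2F7 from 0.467 ± 0.246 to 6.23 ± 5.12 FPKM (SD, n = 3), with a limma adjusted p of 0.0188. Both encode E2F proteins that repress transcription, and E2F4 binds the pocket proteins that cyclin E and CDK2 phosphorylate. The pocket protein genes themselves were not called. RB1 had 3.89 FPKM in Y6M and 4.09 in Y30M, and RBL1 had 3.76 and 5.14, with RBL1 called without Y6M yak 3. In replication licensing 5 of 26 listed genes were paired and 3 were called higher. All paired genes of this list and of RB and E2F got their symbol through lists of changed features alone. MCM8, a helicase of meiotic recombination, rose from 0.945 ± 0.182 to 3.70 ± 1.06 FPKM (SD, n = 3, limma adjusted p = 0.00425). CDC6 and MCM6, which load and form the replicative helicase, were called higher by 0.84 and 1.19 on the log2 scale, but their groups overlapped, their limma adjusted p were 0.072 and 0.0928, and each lost its call when any of 4 libraries was left out. MCM2 had 27.7 FPKM in Y6M and 54.6 in Y30M and was not called in the main fit. It was called in 4 of 16 alternative settings, among them without Y30M yak 3. CDC7 had 14.2 and 9.67 FPKM and was not called.

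The spindle checkpoint is the setting in which USP44 is best known, and 7 of 31 listed genes were paired. Of these 5 were called higher and none lower, against 32.7% higher among all genes with a symbol. All 7 were paired through lists of changed features alone, so the count leans towards changed genes. TTK, the kinase that starts checkpoint signalling, rose from 0.661 ± 0.558 to 7.21 ± 6.23 FPKM (SD, n = 3, limma adjusted p = 0.0294). CDCA8, a subunit of the chromosomal passenger complex, rose from 3.80 ± 1.28 to 17.9 ± 5.27 FPKM (SD, n = 3, limma adjusted p = 0.00385), and ZWILCH, a kinetochore protein, from 6.38 ± 3.93 to 24.0 ± 7.92 FPKM (SD, n = 3, limma adjusted p = 0.0182). None of the 21 listed genes of the anaphase-promoting complex and its regulators, CDC20 among them, could be paired with an identifier. In the centriole list 3 of 12 genes were paired, 2 of them through lists of changed features alone, and all 3 were called higher. PLK4, the kinase that starts centriole duplication, rose by 2.48 on the log2 scale, CEP192, a centrosome scaffold, by 2.20, and STIL, a centriole assembly protein, by 1.24, with limma adjusted p of 0.0191, 0.000709 and 0.0148.

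USP44 belongs to the ubiquitin-specific peptidases, of which 13 of 52 listed genes were paired, 5 called higher and 3 lower, with USP44 counted among the 13 and the 5. USP44 had the largest rise of the 13. USP3, which acts on ubiquitinated histones, rose from 5.38 ± 1.47 to 17.1 ± 4.24 FPKM (SD, n = 3, limma adjusted p = 0.00522). USP16, which removes ubiquitin from histone H2A, rose from 11.9 ± 4.81 to 34.3 ± 20.5 FPKM (SD, n = 3, limma adjusted p = 0.0648), and lost its call without Y6M yak 1 or 2. USP43 moved the other way, from 3.94 ± 0.296 to 0.331 ± 0.147 FPKM (SD, n = 3, limma adjusted p = 0.000242). USP24 fell by 0.95 and USP10 by 0.75 on the log2 scale, with limma adjusted p of 0.0518 and 0.0473. Both calls were lost without Y6M yak 3, and that of USP10 also without Y30M yak 2 or Y6M yak 1. The other 5 genes were not called. The paired peptidases thus moved in both directions, as did all genes with a symbol, of which 32.7% were called higher and 26.5% lower. Of the 13, 7 got their symbol through lists of changed features alone.

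**Figure D2:**
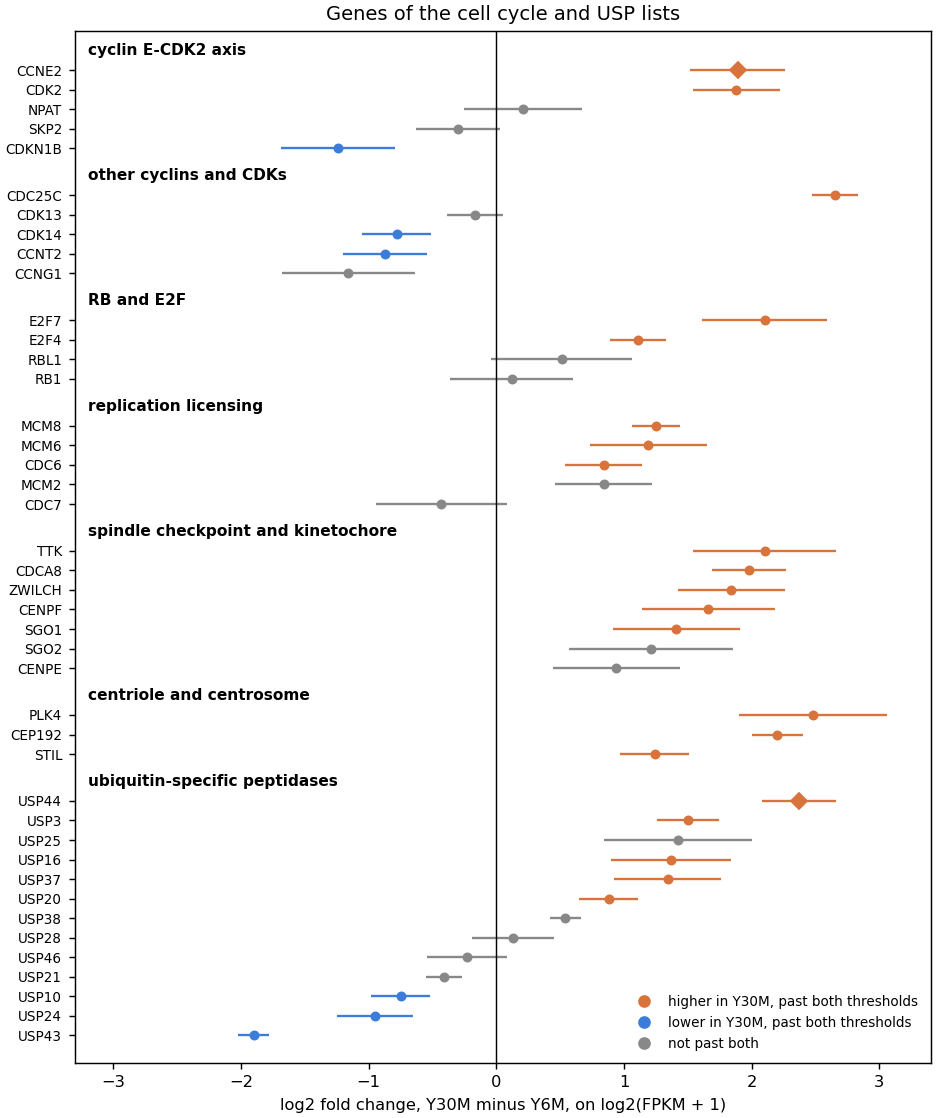
Difference between Y30M and Y6M in log2(FPKM + 1) for the 42 genes of the cell cycle and peptidase lists that carry a symbol, with CCNE2 and USP44 as diamonds. Bars are standard errors of the limma fit to 3 yaks per group, and colour marks the call. CCNE2 lies beside CDK2 at the top of its list, and USP44 has the highest value of the peptidases, with USP43 at the other end.

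Levels of paired cell type markers differed with age as well. The paired spermatid, Sertoli, Leydig, and peritubular, endothelial and macrophage markers all got their symbol through lists of changed features alone. Of the 3 paired spermatocyte markers 1 did. The markers shown therefore lean towards changed genes, and 59.3% of all genes with a symbol were called. The spermatid marker that could be paired, SPATA18, was 0.0496 to 0.45 FPKM in Y6M and 47.3 to 232 in Y30M, 1 of 17 listed. Of the 16 spermatocyte markers 3 were paired, with a summed level of 11.4 to 32.3 FPKM in Y6M and 17.1 to 79.6 in Y30M, so these ranges overlapped. SYCP3, a protein of the synaptonemal complex, rose from 3.05 ± 1.93 to 18.1 ± 12.3 FPKM (SD, n = 3). HORMAD1 had 13.5 and 17.7 FPKM and MLH3 3.31 and 7.01, and neither was called in the main fit. MLH3 was called in 3 of 16 alternative settings. The 3 paired Sertoli cell markers of 11, SOX9, FSHR and DHH, fell together, from a summed 108 to 125 FPKM to 25.7 to 45.3. LHCGR, the 1 paired Leydig cell marker of 6, fell from 34.4 to 67.3 FPKM to 1.44 to 5.37, and PECAM1 and CDH5, the 2 paired of 9 peritubular, endothelial and macrophage markers, summed to 14.8 to 22.0 FPKM in Y6M and 3.69 to 6.95 in Y30M. None of the 9 spermatogonia markers was paired, and no paired marker sum was 0 in any library. The part of these shifts in the rise of CCNE2 and USP44 was not tested.

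The named genes whose log2(FPKM + 1) ran most like that of each gene over the 6 libraries were taken from 1958 genes with a symbol and a mean of at least 1 FPKM. For CCNE2 they were DEPDC7, MRPL39, CEP350, CCDC191 and STIL, with Pearson's r from 0.9935 to 0.9974. MRPL39 encodes a mitochondrial ribosomal protein and CEP350 and STIL encode proteins of the centrosome. DEPDC7 had the closest level too, at 1.45 ± 1.03 FPKM in Y6M and 9.31 ± 3.60 in Y30M (SD, n = 3). For USP44 they were DNAI3, CEP128, CFAP44, SMC1B and PLAAT1, with r from 0.9972 to 0.9986. DNAI3 and CFAP44 encode proteins of the axoneme, the core of the sperm tail, and SMC1B encodes a cohesin subunit of meiosis. DNAI3 went from 0.0579 ± 0.0329 to 20.6 ± 15.8 FPKM (SD, n = 3) and SMC1B from 0.739 ± 0.161 to 22.3 ± 13.9 FPKM (SD, n = 3). USP44 ranked 133 among the genes most like CCNE2, with r = 0.9533. The points of these correlations are 2 ages of 3 yaks each, so most genes that rise with age correlate highly, and r is given as a description.

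**Figure D3:**
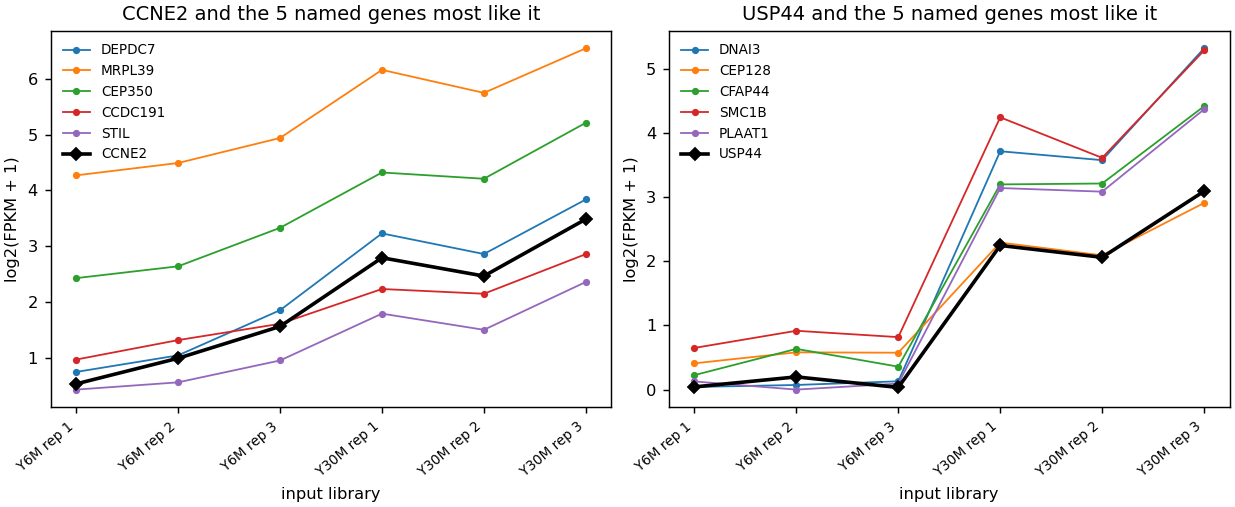
Expression in log2(FPKM + 1) of CCNE2 (left) and USP44 (right), in black, and of the 5 named genes whose values correlate most with each, in every input library. CCNE2 and its 5 genes differ among the Y6M yaks and are highest in yak 3 of each group, and USP44 and its 5 genes are near the floor in all Y6M yaks and highest in Y30M yak 3.

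The m6A peaks lay on the LU_Bosgru_v3.0 build, and the peak table gives each peak as exon blocks with its enrichment over input for both groups pooled. CCNE2 carried 1 peak, at chr18:61692482-61693870 on the + strand, a span of 1389 bp with 4 exon blocks of 24, 97, 54 and 119 bp. Its enrichment was 1.98-fold over input (p = 0.00209, FDR = 0.00617, both the authors' pooled values), under the FDR of 0.05 used as a reference here. Enrichment was lower in 35.2% of all peaks, whose median was 2.31-fold, so the CCNE2 peak was of modest height. A peak of 4 blocks was found in 6.35% of cases, and 47.6% of peaks were a single block.

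USP44 carried 2 peaks, both on the + strand of chromosome 5. The first, at chr5:82720213-82720562, was a single block of 350 bp with 3.93-fold enrichment, higher than 93.8% of all peaks. The second, at chr5:82732637-82733663, spanned 1027 bp with blocks of 9 and 192 bp and had 3.18-fold enrichment, higher than 79.7% of peaks. The authors' pooled FDR was 1 for both, so neither was past 0.05 in spite of its fold, as in 27.8% of all peaks. Peaks with an FDR of 1 had a median fold of 2.16 and those at an FDR of at most 0.05 a median of 2.36. The median expression of the genes under them was 12.4 FPKM for the former and 9.89 for the latter, averaged over the 6 libraries, against 4.0 FPKM for CCNE2 and 2.44 for USP44. A gene with 1 peak was the usual case, 52.6% of the 8809 genes with a peak, and 27.8% had 2.

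The Y6M group had peaks of its own on both genes. The CCNE2 peak of Y6M ran from 61692482 to 61693821, 1340 bp, and covered 96.5% of the peak in the compared table. On USP44 the Y6M peak ran from 82720263 to 82720413, 151 bp, and covered 43.1% of the first peak. No Y6M peak overlapped the second USP44 peak. The input of USP44 in Y6M was only 3, 17 and 2 fragments in yaks 1, 2 and 3, by the smallest numbers that fit. At such a level neither the Y6M peak on USP44 nor the lack of another can be read firmly. Y30M peaks of these genes were not analysed here, and neither were values per yak of the precipitated libraries, so methylation was not compared between the ages.

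Adenosines in the Y6M peaks carry a score from a sequence-based m6A predictor, and a score of at least 0.528 is marked as a site. In CCNE2 3 of 28 scored adenosines were sites (10.7%, exact binomial 95% interval 2.27 to 28.2), with scores of 0.539, 0.591 and 0.532 at positions 61692592, 61692842 and 61692874 of chromosome 18. All 3 lay between the exon blocks of the peak, among 25 scored adenosines there, and 0 of 3 adenosines inside the blocks were sites, which allows a share of up to 70.8%. In USP44 3 of 4 scored adenosines were sites (75.0%, exact binomial 95% interval 19.4 to 99.4), all inside the exon block, with scores of 0.596, 0.561 and 0.686 at positions 82720302, 82720343 and 82720394 of chromosome 5. The fourth, at 82720403, scored 0.496. Over all Y6M peaks 21.5% of 2035099 scored adenosines were sites, a share that lies inside the intervals of both genes. The intervals treat adenosines as independent draws, but these are all the scored adenosines of the Y6M peak of each gene. They therefore do not test a gene against that share. The highest score, 0.686, was that of USP44, and no CCNE2 adenosine reached 0.6. The scores are predictions from sequence, not measurements of methylation in these yaks.

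**Figure D4:**
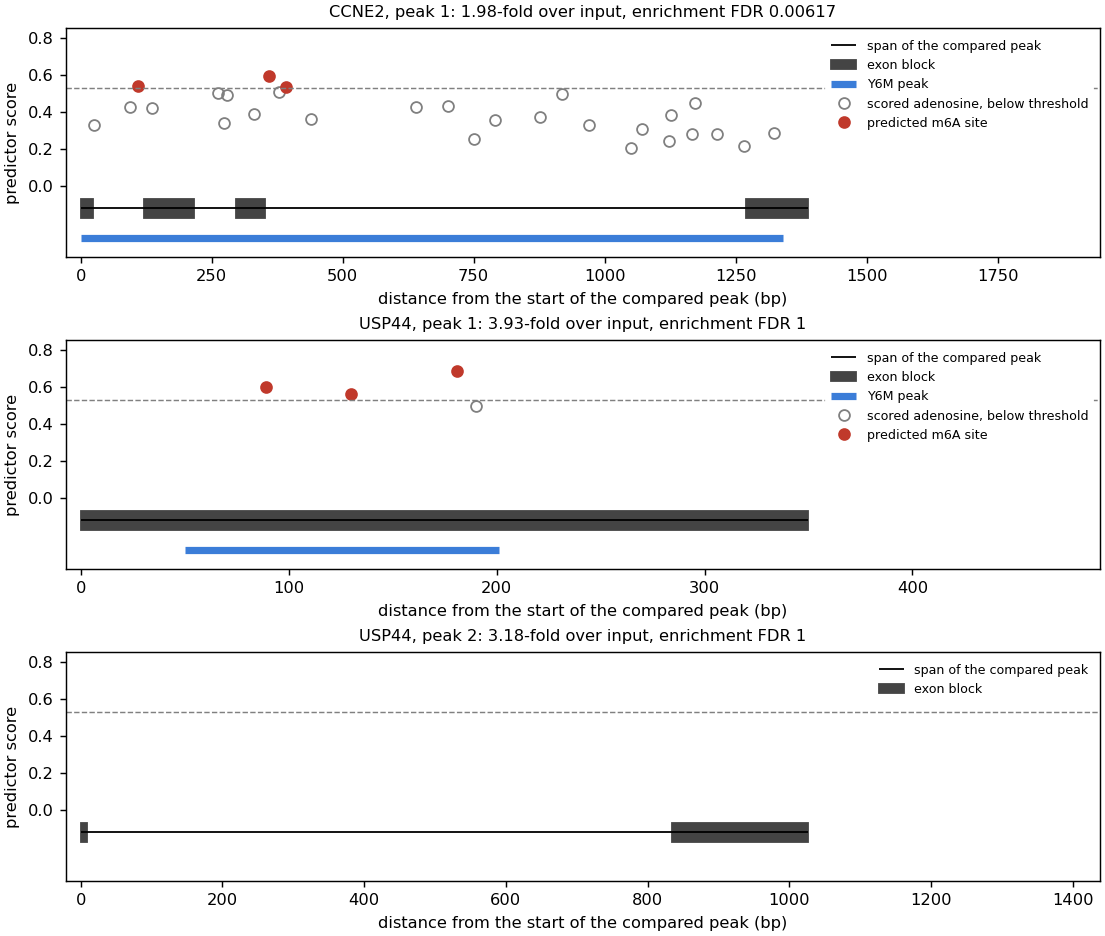
The compared m6A peaks of CCNE2 and USP44 drawn to scale, with distance from the start of the peak in bp on the x axis and predictor score on the y axis. Dark blocks are exon blocks, the blue bar is the Y6M peak, filled points are predicted sites and the dashed line is the score of 0.528. The 3 predicted sites of CCNE2 lie outside its blocks, those of USP44 lie inside its block, and the second USP44 peak has neither a Y6M peak nor scored adenosines.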

How the data were processed

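Gene expression came as FPKM that the authors made from the 6 input libraries, after trimming with Trimmomatic and alignment with HISAT2 to LU_Bosgru_v3.0. Peaks were called by the authors with MeTDiff on the replicates of a group together. The deposited peak table gives fold enrichment over input and its p-value, and scores of p and FDR on a log scale that were turned back to FDR here. The deposited site list holds predictor scores for the adenosines of Y6M peaks, and that of Y30M was not used here. Columns with the authors' own comparison of methylation between the ages (fold, p and FDR) were not used.

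All 19477 genes above 0 in at least 1 library were fitted as log2(FPKM + 1) with limma 3.58.1 in R 4.3.3, without covariates, and p-values were adjusted by Benjamini-Hochberg. The fit was tested on simulated data. The labels give each library a group and a replicate number, and the study describes 3 yaks per group. Fragment numbers were taken as the smallest whole numbers, within 0.05, that fit each gene's FPKM and the relative depth, since totals are not given in the sources used here.

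Symbols were paired one-to-one with 2100 identifiers through the names in the study's supplementary lists. No identifier matched the reference gene table, of assembly Bosgru_T2T1.0, and 83 symbols with ambiguous pairs were dropped. The named genes were every paired member of a list of at most 6 and otherwise the 3 largest called rises and falls, and the 5 genes most correlated with each of CCNE2 and USP44. The remaining list, m6A writers, erasers and readers, had 3 of 19 genes paired, with IGF2BP3 called higher, IGF2BP2 lower and YTHDF2 not called. The genes and lists were chosen with earlier results of these data known.

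Deviations from the group means of yaks with the same number correlated at 0.237, 0.304 and 0.63 over 13912 genes for numbers 1, 2 and 3. Unlike numbers 1 and 2 correlated as much, at 0.335 (Y6M 1 with Y30M 2) and 0.276 (Y6M 2 with Y30M 1), so only number 3 stood apart from the other numbers. The labels do not say what a number shares.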

Additional observations from a re-analysis of the deposited data

How the results depend on the processing

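CCNE2 kept its call in 16 of 16 alternative settings, with log2 differences of 1.60 to 2.76, and USP44 in 16 of 16, with 2.03 to 6.24. Leaving out 1 library at a time gave 1.60 to 2.15 for CCNE2 and 2.06 to 2.58 for USP44. Scaled to TPM the differences were 2.24 and 2.94, in the order CCNE2 and USP44. With the replicate number as a block the calls of both genes held (CCNE2 SE 0.19, USP44 SE 0.28, limma adjusted p = 0.00435 and 0.00579), 9747 genes were called against 9011, and the cell cycle and peptidase lists had 22 genes higher and 7 lower, with CENPE, SGO2 and USP25 newly called higher and CCNG1 lower. The spermatocyte marker MLH3 was also newly called. The number of genes called ran from 7021 to 10144, and that of list genes from 17 to 29.

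With 1 library left out at a time the genes called ran from 8143 to 8945 and the list genes from 17 to 23. Some values moved. With an FDR of at most 0.05, 1 of the 3 peaks was left, that of CCNE2. With a score of at least 0.6, 0% of the CCNE2 adenosines were sites, and 25.0% of those of USP44 (1 of 4) in place of 75.0%. An overlap of 50% of both peaks left 1 peak shared with Y6M. Across the other 51 named genes 743 of 816 alternative values kept their direction and call, 49 lost it, 14 gained it and 10 changed sign, all of the last in genes not called. CDK13 became 0.01 with TPM and 0.03 without Y6M yak 3, and CDC7 became 0.04 without Y6M yak 3. Without Y30M yak 3 NPAT became -0.11, RB1 -0.21 and HORMAD1 -0.53. Without Y6M yak 1 they became -0.05, -0.21 and -0.23, and without yak 3 of both groups HORMAD1 became -0.10, a setting chosen after seeing the data. With single libraries left out these genes ranged from -0.11 to 0.59 (NPAT), -0.27 to 0.03 (CDK13), -0.21 to 0.54 (RB1), -0.72 to 0.04 (CDC7) and -0.53 to 0.67 (HORMAD1). The cause was not tested.

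The depth may limit USP44 in Y6M, where the smallest fragment numbers that fit were 2 to 17. The design of 3 against 3 yaks limits any exact permutation test to p = 0.1.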
